A study of Mus musculus with 24 samples.

Results

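The CYP2 family of cytochrome P450 monooxygenases was examined in mouse liver across a diet experiment. Members were all probe sets for which the array annotation lists exactly 1 gene symbol, made of Cyp2, a subfamily letter and a number. This rule found 42 of 45037 probe sets, for 35 of the 18193 genes that have a probe set of 1 symbol. The rule itself reads the annotation and no expression value. Male C57BL6J mice were kept on a low-fat diet (LF, 6 mice), a diet with 45% fat (HF, 6 mice) or the same 45% fat diet containing 5% powdered propagules of Japanese yam (HF+P, 6 mice). All mice started on low-fat food, ate their diet freely for 4 weeks and had no food for the last 16 h, so that every group, LF included, was fasted. Liver RNA of each mouse was hybridised to 1 Affymetrix array. The HF arrays were processed once with LF and once with HF+P, and each comparison uses its own set of 12 columns, so both comparisons rest on the same 6 HF mice. The fat source, the make-up of the low-fat diet and the age of the mice are not stated in the labels.

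Cytochromes P450 are haem enzymes of the endoplasmic reticulum that insert an oxygen atom into their substrates with electrons passed on by P450 oxidoreductase and, for some reactions, cytochrome b5. The CYP2 family holds many of the enzymes with which the liver oxidises drugs, steroids and fatty acids, and in mice it has expanded into clusters of closely related genes. Transcription of its members is known to respond to the nuclear receptors CAR and PXR, to the sex-specific rhythm of growth hormone, and to the position of the hepatocyte in the lobule.

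Of the 35 genes, 11 members of the Cyp2c subfamily are on chromosome 19, 8 of Cyp2d on chromosome 15, and 5 of Cyp2j on chromosome 4, by the RefSeq annotation of GRCm38.p6. Chromosome 7 holds 10 genes, namely Cyp2s1, the Cyp2b genes, Cyp2g1, Cyp2a12, Cyp2f2, Cyp2r1 and Cyp2e1, and Cyp2u1 is on chromosome 3. Along chromosome 4 the members stand in the order Cyp2j13, Cyp2j11, Cyp2j6, Cyp2j9 and Cyp2j5. The 250 bases before the annotated starts of Cyp2j6, Cyp2j9 and Cyp2j5 are shown because Cyp2j5 and Cyp2j6 were the members with HF and LF values that did not overlap, while their neighbour Cyp2j9 differed with the opposite sign. They are RefSeq sequences of GRCm38.p6 on the minus strand, written 5′ to 3′ along the gene, and capitals mark the motifs TATAAA or AGGTCA on either strand (TTTATA and TGACCT are the same motifs read from the other strand).
Cyp2j6, chr4:96553652-96553901: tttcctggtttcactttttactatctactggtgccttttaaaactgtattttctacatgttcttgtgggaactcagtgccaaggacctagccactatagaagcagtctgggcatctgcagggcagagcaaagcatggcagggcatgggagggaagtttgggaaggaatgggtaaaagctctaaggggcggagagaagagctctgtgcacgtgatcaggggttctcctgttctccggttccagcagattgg
Cyp2j9, chr4:96591486-96591735: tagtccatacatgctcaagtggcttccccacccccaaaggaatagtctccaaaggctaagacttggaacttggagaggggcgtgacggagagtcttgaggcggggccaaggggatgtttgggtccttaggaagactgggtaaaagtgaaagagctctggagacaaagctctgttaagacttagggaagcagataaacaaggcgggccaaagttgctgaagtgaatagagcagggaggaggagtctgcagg
Cyp2j5, chr4:96664120-96664369: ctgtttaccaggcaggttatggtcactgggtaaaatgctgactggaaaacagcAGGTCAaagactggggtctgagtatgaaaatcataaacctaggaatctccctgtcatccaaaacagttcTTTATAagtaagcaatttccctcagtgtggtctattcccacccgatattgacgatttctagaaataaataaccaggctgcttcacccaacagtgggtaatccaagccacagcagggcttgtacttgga
Only the Cyp2j5 window among these 3 holds either motif: AGGTCA begins at position -197, and TATAAA, on the opposite strand, at -128, with -1 the last base before the annotated start. TATAAA is the core of the TATA box, a promoter element bound by the general transcription machinery, and AGGTCA is the half-site recognised by many nuclear receptors. Windows were held for 27 of the 35 genes, 29 windows in all. TATAAA was present in 12 of the 29 (41.4%), against 12.4% of 32851 windows of the same length over all genes, and AGGTCA in 8 of 29 (27.6%), against 14.0%. In a window of 40 to 16 bases before the start on the gene's own strand, chosen after the positions of the motifs had been seen, TATAAA was present in 4 of 29 member windows (13.8%) and in 1.99% of all windows. These are matches of letters, several of the windows come from closely related genes, and no binding was measured.

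The values handled here were treated as log2, though their log base is not stated. They differ very little between arrays, so no fold change is given. Group differences are standardized, divided by the pooled SD within groups, with the correction of Hedges and a 95% interval, and values of single mice are deviations from the mean of the reference group in millionths of a log2 unit. Probe sets of the same gene are told apart by their mean level in LF, as brighter or dimmer, and the names are kept for HF+P against HF. Hepatocyte markers were high, as the label liver implies: the 17 probe sets of 11 hepatocyte markers had a median level at the 99.97th percentile of all probe sets in the LF and HF value set. Marker probe sets of lung and airway, kidney tubule, bile duct and intestinal epithelium, other places where CYP2 genes are active, had medians at the 37.6th, 25.9th, 38.4th and 36.7th percentile. Macrophage and Kupffer cell markers were higher in HF than in LF in 20 of 22 probe sets, and HF+P was below HF in 22 of 22, with 0 called in either comparison (2 and 0 at an unadjusted limma p below 0.05). After quantile normalisation and after subtracting column medians these counts were 14 and 16 of 22 higher in HF, and 17 and 20 of 22 lower in HF+P. Their score, averaged over probe sets in pooled SDs from the reference mean, ran from -0.443 to 1.20 in LF and -0.157 to 2.49 in HF. Their score in the other value set ran from -0.910 to 1.85 in HF and from -1.52 to 0.302 in HF+P. Their part in the CYP2 values below was not tested, and in whole liver a change in the number of cells and a change in RNA per cell cannot be told apart. Both comparisons contain the same HF mice, so the opposite signs of the macrophage markers are not independent. As deposited, HF+P was also below HF in 7 of 7 red blood cell and 13 of 17 lymphocyte and NK cell probe sets. After quantile normalisation these were 5 and 9, and after subtracting column medians 4 and 6. Fat cell markers went the other way, with 7 of 9 probe sets higher in HF+P as deposited.

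The members covered nearly the whole range of levels on the array. In the LF and HF value set 16 probe sets, for 15 genes, lay above the 95th percentile, 14 lay between the 50th and 95th, and 12 at or below the 50th. Cyp2e1, which oxidises ethanol and acetaminophen in pericentral hepatocytes, had the highest mean, 14.42 in LF, at the 99.96th percentile. Cyp2f2, an enzyme of naphthalene oxidation found in airway cells and periportal hepatocytes, stood at the 99.81st percentile, Cyp2d10 and the testosterone hydroxylase Cyp2d9 at the 99.71st and 99.70th, and Cyp2a12 at the 99.52nd. Low on the array were Cyp2c65 at the 8.96th percentile, Cyp2b10 at the 13.6th and 18.3rd for 2 of its 3 probe sets, and Cyp2g1, known from olfactory mucosa, at the 45.4th. Levels of different probe sets are not abundances, because probes differ in brightness.

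The spread between mice also differed greatly among the members. The pooled within-group SD of HF and LF ran from 0.0231 millionths for Cyp2e1 to 2121 millionths for Cyp2c38, an arachidonic acid epoxygenase. Cyp2e1 took only 7 distinct values over its 12 columns, and these spanned 8 steps of the last deposited decimal, so that rounding limits what can be read from this probe set. Members between the 50th and 95th percentile had a median pooled SD of 111 millionths, against 14.3 above and 8.48 below that range. Over all probe sets the 3 ranges had medians of 4.82, 4.20 and 3.66 millionths.

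HF was set against LF to see what high-fat feeding did. None of the 42 CYP2 probe sets was called by limma with Benjamini-Hochberg adjustment over 45037 probe sets at 0.05, and the lowest adjusted p was 0.0986; the background was 302 probe sets called, 0.671%. The count of members called was 4 after quantile normalisation (6766 of all probe sets), 31 after subtracting column medians (42369 of all), 3 when each probe set was divided by its pooled SD (2556 of all), and 0 under the other settings tried at 0.05. At an unadjusted limma p below 0.05 there were 9 of 42 members, 21.4%, against 12.9% of all probe sets. Of these, 5 were higher in HF (Cyp2j5, both probe sets of Cyp2j6, Cyp2r1 and Cyp2c23) and 4 lower (Cyp2c55, Cyp2c29, Cyp2b10 and Cyp2j9). HF and LF values did not overlap in 2 of 42 members, 4.76%, against 1.57% of all probe sets. The standardized differences had a median of 0.22 (all probe sets 0.015) and ran from -1.58 to 2.12, and 35 of the 42 intervals included 0. By sign alone 28 members were higher and 14 lower in HF as deposited, 9 higher, 20 lower and 13 equal after quantile normalisation, and 10 higher and 32 lower after subtracting column medians. Over all probe sets the same splits were 22898 to 22139, 5822 to 33789 with 5426 equal, and 1291 to 43746. The column medians were 64.5 millionths higher in HF, more than the difference of 29 of the 42 members and of 94.7% of all probe sets, whereas the median difference over all probe sets was 0.0353 millionths. With the control probe sets kept, the column medians differed by 33.6 millionths. For members with small differences the sign is therefore a sign on the deposited scale.

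**Figure D1:**
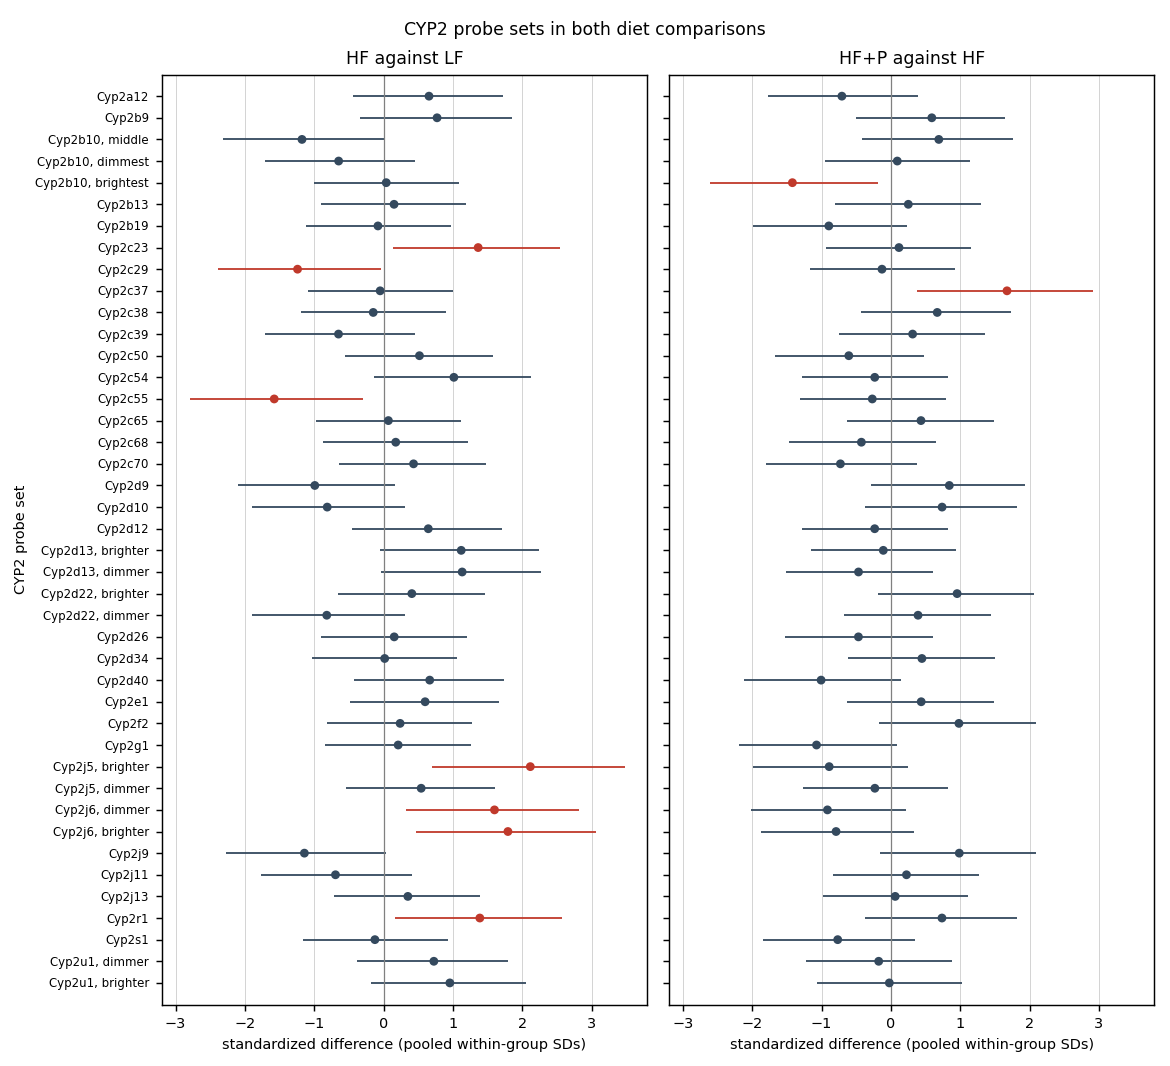
Standardized differences of the 42 CYP2 probe sets (points) with 95% intervals (lines), in pooled within-group SDs, for HF against LF on the left and HF+P against HF on the right, with 6 mice per group. Intervals that do not include 0 are red, 7 on the left and 2 on the right; Cyp2j5 and Cyp2j6 lie farthest to the right for HF against LF.

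The Cyp2j subfamily, epoxygenases and hydroxylases of arachidonic acid and other fatty acids, held 4 of the 9 members with an unadjusted p below 0.05. Cyp2j5 is the main Cyp2j enzyme known from liver and kidney. In its brighter probe set (LF mean 12.26) LF mice lay at -36.4, 9.04 and 15.7 millionths (lowest, median and highest) and HF mice at 25.5, 35.4 and 53.8. All 6 HF mice were above all 6 LF mice, and LF mouse 1 was the lowest. The standardized difference was 2.12 (95% interval 0.70 to 3.47, 6 mice per group), with an adjusted limma p of 0.0986 and an exact two-sided permutation p of 0.00216, the smallest that 924 assignments allow. Any probe set whose groups do not overlap reaches this permutation p, and it is not adjusted for the number of probe sets. On the scale with column medians subtracted the sign of this probe set turned, to -0.85, and after quantile normalisation it had no spread left. The dimmer Cyp2j5 probe set gave 0.54 (-0.54 to 1.60): LF mice lay between -112 and 134 millionths, HF mice between -297 and 308 around a median of 128. The exact two-sided permutation p was 0.335. HF mouse 8 was the lowest of all 12 mice there, and without it the value was 1.87. Over all mice left out in turn the value ran from 0.31 to 1.87, with adjusted limma p from 0.159 to 0.891.

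Cyp2j6, known from intestine as well as liver, was higher in HF in both of its probe sets. For the brighter one (LF mean 8.22) LF mice lay at -2110, 373 and 891 millionths and HF mice at 927, 1724 and 2370, again with every HF mouse above every LF mouse and LF mouse 1 lowest. It differed by 1.79 (0.46 to 3.07), the adjusted limma p 0.157 and the exact two-sided permutation p 0.00216. For the dimmer one (LF mean 8.16) LF mice lay at -1718, 235 and 1017 millionths and HF mice at 731, 1277 and 2089. In this probe set 5 of 6 HF mice were above all LF mice, and only HF mouse 5 lay within the LF range. Its standardized difference was 1.60 (0.32 to 2.82), with an adjusted limma p of 0.202 and an exact two-sided permutation p of 0.00433. Both Cyp2j6 differences, 1723 and 1376 millionths, are larger than the difference in column medians, and their sign held on all 3 scales. Their size did not hold after quantile normalisation, where the brighter gave 1.38 and the dimmer 0.36 (adjusted limma p 0.095 and 0.692). Values of HF mice 2, 4 and 1 were the highest in both probe sets, which read the same gene and are not independent.

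Cyp2j9, the neighbour of both genes and better known from brain, differed the other way. LF mice lay at -362, -130 and 504 millionths and HF mice at -1500, -823 and 322, with 4 of 6 HF mice below all LF mice. HF mice 2, 3 and 4 formed the low end, and HF mice 5 and 8 were within the LF range. In standardized units this was -1.14 (-2.28 to 0.04), with an adjusted limma p of 0.383 and an exact two-sided permutation p of 0.0584. Cyp2j11 and Cyp2j13, at the 46.3rd and 21.0th percentile of levels, gave -0.69 and 0.35. Over the 7 Cyp2j probe sets 5 were higher and 2 lower by sign, with a median of 0.54.

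**Figure D2:**
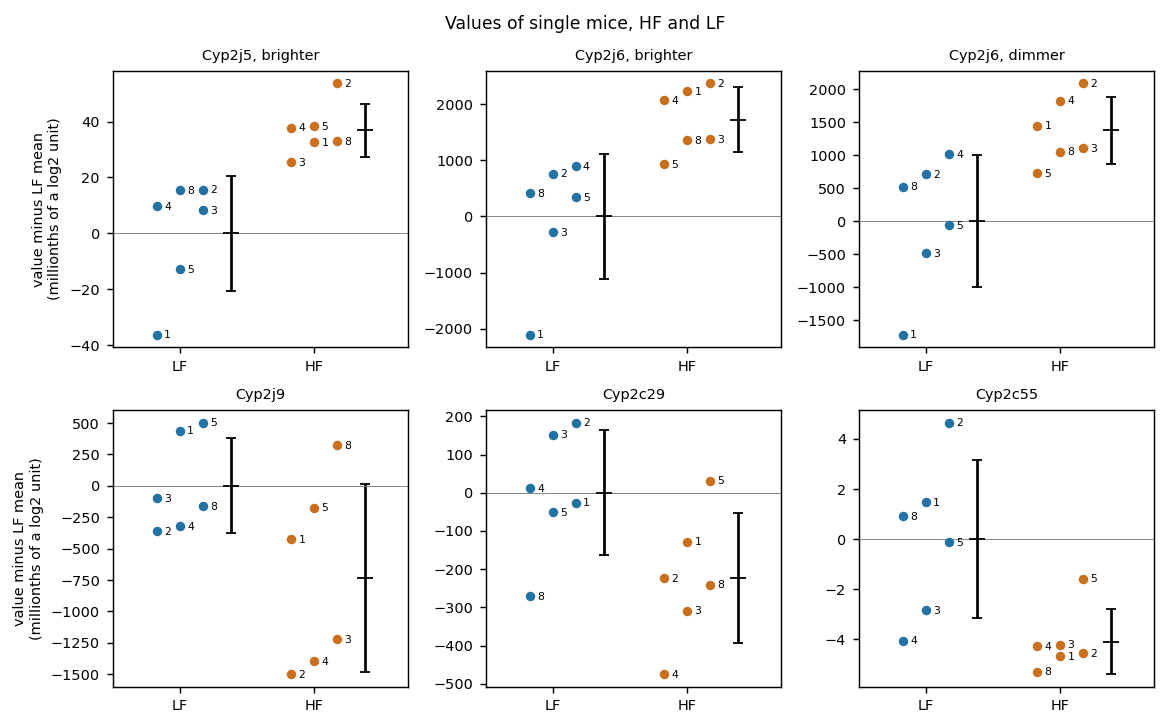
Values of the 6 LF and 6 HF mice (points, labelled with the mouse number) for 6 probe sets, as deviations from the LF mean in millionths of a log2 unit; the black marks are group means with SD. The HF mice lie above all LF mice for the brighter probe sets of Cyp2j5 and Cyp2j6, and 5 of 6 HF mice lie below all LF mice for Cyp2c55.

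The Cyp2c genes, enzymes of drug, steroid and arachidonic acid oxidation, split evenly. Of 11 probe sets 6 were higher and 5 lower in HF by sign, with a median of 0.07. Cyp2c55, an enzyme of colon and, on induction, of liver, had LF mice at -4.06, 0.397 and 4.66 millionths and HF mice at -5.30, -4.43 and -1.58. All HF mice but mouse 5 lay below all LF mice. The standardized difference was -1.58 (-2.80 to -0.30), with an adjusted limma p of 0.221 and an exact two-sided permutation p of 0.0173. Cyp2c55 gave -0.29 after quantile normalisation. It gave -2.90 after subtraction of column medians, where 43746 of 45037 probe sets were lower.

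Cyp2c29, a CAR-inducible enzyme of pericentral hepatocytes, had LF mice at -270, -7.04 and 184 millionths and HF mice at -475, -233 and 31.4. Only HF mice 4 and 3 were below all LF mice, because LF mouse 8 was low as well. This gave -1.24 (-2.39 to -0.04), with an adjusted limma p of 0.338 and an exact two-sided permutation p of 0.0476. Cyp2c23, an epoxygenase also called Cyp2c44, gave 1.36 (0.14 to 2.54, adjusted limma p 0.284), with 4 of 6 HF mice above all LF mice; it was picked out after its value was seen. The remaining Cyp2c genes had intervals on both sides of 0. Among them Cyp2c70, the enzyme that makes muricholic acids in mouse bile, gave 0.43, Cyp2c50, highest in level of the subfamily, 0.52, and Cyp2c39, a retinoic acid hydroxylase, -0.65. Cyp2c38 gave -0.15 and Cyp2c37 -0.05.

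In the Cyp2b subfamily, with the gene most used as a reporter of CAR activity, Cyp2b10 was read by 3 probe sets that did not give one value. The middle one by level had LF mice at -46.2, -7.17 and 69.0 millionths and HF mice at -69.9, -46.0 and 6.84, with 3 of 6 HF mice below all LF mice. Its standardized difference was -1.18 (-2.32 to 0.01), with an adjusted limma p of 0.366 and an exact two-sided permutation p of 0.0476. The dimmest gave -0.65 and the brightest 0.04. The identifiers of the middle and the dimmest end in a mark for probes that can match several transcripts. Cyp2b9, a female-biased enzyme, gave 0.77 (-0.34 to 1.85) on the deposited scale, -0.83 after quantile normalisation and -1.80 after subtraction of column medians.

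Among the Cyp2d genes, the mouse relatives of human CYP2D6, 7 of 10 probe sets were higher by sign, with a median of 0.28 and 0 at an unadjusted p below 0.05. Cyp2d9, the male-biased testosterone hydroxylase, gave -0.99 (-2.10 to 0.16), and Cyp2d10 -0.81 (-1.90 to 0.31). Both probe sets of Cyp2d13 were higher as deposited, at 1.12 in the brighter and 1.13 in the dimmer, but the dimmer was -0.93 and -0.38 on the other scales. The 2 probe sets of Cyp2d22, proposed as the counterpart of the human enzyme, had opposite signs, 0.41 in the brighter and -0.82 in the dimmer. Without LF mouse 8, the lowest LF mouse of the dimmer, that value was -2.69 with an adjusted limma p of 0.0767. Over all mice left out in turn it ran from -2.69 to -0.61, with adjusted limma p from 0.0767 to 0.708.

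Cyp2r1, the microsomal hydroxylase that starts vitamin D activation, had LF mice at -83.6, 8.44 and 76.7 millionths and HF mice at 32.2, 74.5 and 99.3. The ranges overlapped, with 3 of 6 HF mice above all LF mice and HF mouse 4 lowest in its group. Cyp2r1 differed by 1.39 (0.16 to 2.57), with an adjusted limma p of 0.274 and an exact two-sided permutation p of 0.0260. It was 0.10 after subtraction of column medians. Cyp2u1, a fatty acid hydroxylase, gave 0.96 in its brighter and 0.72 in its dimmer probe set, Cyp2a12 0.65, Cyp2e1 0.60, Cyp2f2 0.24, Cyp2g1 0.21 and Cyp2s1, an enzyme of epithelia, -0.13, all with intervals that include 0.

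HF+P was set against HF to see what propagule powder did within the high-fat diet. Again 0 of 42 members were called by limma with Benjamini-Hochberg adjustment, where 1 of 45037 probe sets was called, 0.00222%, and the lowest adjusted p among the members was 0.560. The count was 0 under every other setting tried as well. At an unadjusted limma p below 0.05 there were 2 of 42 members, 4.76%, against 6.94% of all probe sets: Cyp2c37 was higher and 1 probe set of Cyp2b10 lower. HF+P and HF values did not overlap in 0 members, against 0.355% of all probe sets. The standardized differences ran from -1.42 to 1.67 with a median of -0.07 (all probe sets -0.01), and 40 of 42 intervals included 0. By sign 20 members were higher and 22 lower as deposited, 17 higher, 9 lower and 16 equal after quantile normalisation, and 30 higher and 12 lower after subtracting column medians, whose difference, HF+P minus HF, was -4.09 millionths. Over all probe sets the splits were 22222 to 22815, 21728 to 15389 with 7920 equal, and 38819 to 6218.

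Cyp2c37, a hydroxylase of arachidonic acid, had HF mice at -275, -54.5 and 241 millionths and HF+P mice at 70.4, 384 and 615. In HF+P 4 of 6 mice were above all HF mice, and HF mice 1 and 2 reached the level of the lower HF+P mice. The standardized difference was 1.67 (0.38 to 2.92), with an adjusted limma p of 0.560 and an exact two-sided permutation p of 0.0173. Its sign was the same on all 3 scales, at 0.53 after quantile normalisation and 1.72 after subtraction of column medians. In HF against LF the same probe set gave -0.05.

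The brightest Cyp2b10 probe set had HF mice at -2.68, -0.931 and 4.61 millionths and HF+P mice at -5.45, -3.70 and -1.40, with 5 of 6 HF+P mice below all HF mice and HF+P mouse 4 within their range. This probe set gave -1.42 (-2.61 to -0.18), with an adjusted limma p of 0.654 and an exact two-sided permutation p of 0.0195. It was 0.66 after quantile normalisation and 0.06 after subtraction of column medians, and the middle and dimmest Cyp2b10 probe sets gave 0.69 and 0.09. Cyp2g1 gave -1.07 (-2.19 to 0.09) and Cyp2d40 -1.01 (-2.12 to 0.15). On the higher side were Cyp2j9 at 0.99 (-0.16 to 2.09) and Cyp2f2 at 0.98 (-0.17 to 2.09).

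For the genes with the largest HF against LF differences, the HF+P against HF values stand here side by side; both comparisons contain the HF mice, so their signs are not independent. Cyp2j5 gave -0.89 (-1.98 to 0.24) in its brighter probe set and -0.23 (-1.27 to 0.82) in its dimmer one. Cyp2j6 gave -0.79 (-1.87 to 0.33) in the brighter and -0.92 (-2.01 to 0.22) in the dimmer, with 4 of 6 HF+P mice below all HF mice in each. Cyp2c55 gave -0.27, Cyp2c29 -0.13 and Cyp2r1 0.74. By subfamily the medians were -0.13 for Cyp2c, 0.14 for Cyp2d, 0.17 for Cyp2b and -0.23 for Cyp2j.

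**Figure D3:**
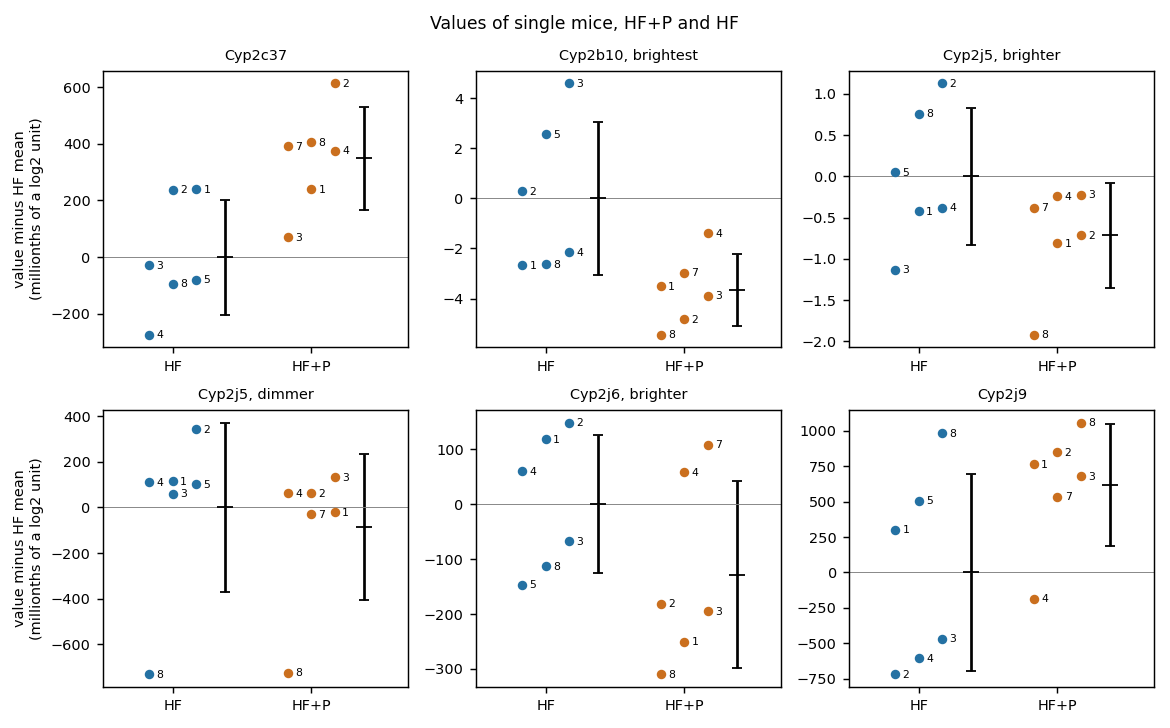
Values of the 6 HF and 6 HF+P mice (points, labelled with the mouse number) for 6 probe sets, as deviations from the HF mean in millionths of a log2 unit; the black marks are group means with SD. For Cyp2c37 4 of 6 HF+P mice lie above all HF mice, and for the dimmer Cyp2j5 probe set mouse 8 is the lowest of both groups.

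Because the same HF arrays stand in both value sets, the effect of the authors' processing on each member could be read directly. The SD over the 6 HF arrays in the set with HF+P, divided by that in the set with LF, ran from 0.0875 for the brighter Cyp2j5 probe set to 5.22 for Cyp2c37, with a median of 0.655, and differed more than 2-fold in 20 of 42 members. For that Cyp2j5 probe set the SD was 9.50 millionths beside LF and 0.831 beside HF+P. For Cyp2c37 it was 38.9 millionths beside LF and 203 beside HF+P. The HF mouse with the highest value was the same in both sets for 37 of 42 members, 88.1% (all probe sets 75.0%), and the whole order of the 6 mice was the same for 21 of 42, 50% (all probe sets 24.8%). The mean over the 6 HF arrays shifted as well, by -0.292 (Cyp2c54) to 0.862 log2 units (Cyp2d12), set with HF+P minus set with LF. For the dimmer Cyp2j6 probe set the shift was 0.375 log2 units, beside an HF against LF difference of 1376 millionths. Levels and differences in millionths are therefore not comparable between the value sets.

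**Figure D4:**
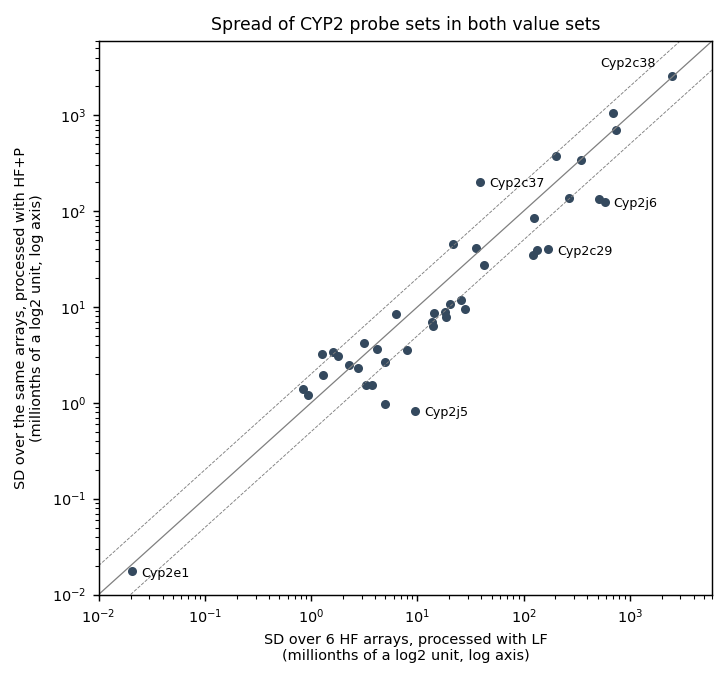
SD of each CYP2 probe set (points) over the same 6 HF arrays, processed with LF on the x axis and with HF+P on the y axis, in millionths of a log2 unit on log axes; the solid line marks equal SDs and the dashed lines a 2-fold difference. Cyp2c37 lies above the dashed lines, and the brighter probe sets of Cyp2j5 and Cyp2j6 lie below.

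Single mice stood at the edge of their group for many members together. HF+P mouse 8 had the lowest value in 17 of 42 members, 40.5%, against 22.8% of all probe sets, among them both probe sets of Cyp2j5 and of Cyp2j6. HF mouse 5 was lowest of the HF mice in 13, 31.0% (all 16.5%), and LF mouse 4 highest of the LF mice in 12, 28.6% (all 16.4%). Members share arrays and several are close copies, so these counts are not independent.

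The other genes of the P450 system were described in the same fits. In the list of electron transfer and haem genes, 0 of 34 probe sets were called higher and 1 lower in HF against LF: Pgrmc2, a haem-binding membrane protein, in 1 probe set at -3.69 (-5.57 to -1.76, adjusted limma p 0.0118). The second Pgrmc2 probe set gave -2.06 with an adjusted limma p of 0.106. This list had a median of 0.47, which was -0.61 after quantile normalisation and -2.34 after subtracting column medians. The regulators of P450 genes had a median of 0.43, which was -0.25 and -1.04 on those scales. Of their 53 probe sets 2 were called higher and 0 lower, both for Srebf2, the regulator of sterol synthesis, at 4.38 and 2.85 (adjusted limma p 0.00466 and 0.0419), although the second was -2.83 and -2.39 on the other scales. The receptors CAR (Nr1i3) and PXR (Nr1i2) had no called probe set.

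Of 27 probe sets of CAR and PXR targets outside the CYP2 family, 10 were higher and 17 lower in HF by sign. Their median was -0.51, and -0.80 and -1.44 after quantile normalisation and after subtracting column medians. By limma 0 were called higher and 2 lower, named here after their values were seen. Cyp3a11, a major drug-oxidising P450 of mouse liver, was at -9.24 (-13.3 to -5.11, adjusted limma p 2.39e-05), and the carboxylesterase Ces2a at -3.45 (adjusted limma p 0.0156). After quantile normalisation neither had any spread left to test. Aldh1a1 and 1 probe set of Ugt2b34, of the same list, were higher in HF without overlap, at 2.25 and 2.05 (adjusted limma p 0.0813 and 0.109). The male-biased genes outside CYP2 had 1 of 17 probe sets called higher (Susd4), the female-biased genes 1 of 26 called lower (Cyp3a44), and the pericentral genes 1 of 32 called higher (Gulo). Cyp3a44, at the 10.6th percentile of levels, was at -4.67 as deposited but at 0.20 after quantile normalisation, with an adjusted limma p of 0.885. Its sign thus turned and the call was lost there. Gulo had no spread left on that scale, while Susd4 kept its sign and its call, at 3.12 as deposited and 2.96. The male-biased list had a median of 1.15, and 1.02 and 1.03 on the other scales. The female-biased list had -0.13, and -0.59 and -2.37. For the pericentral list the median of 0.43 turned to -0.41 after quantile normalisation and -0.62 after subtracting column medians. In HF+P against HF, 0 probe sets were called in each of these 6 lists by limma, and 1 to 6 per list had an unadjusted p below 0.05.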

How the data were processed

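Liver RNA of 18 mice was measured on 3' expression arrays, 1 per mouse. The deposited table holds 45101 probe sets in 24 columns, a set of 12 for LF and HF and a set of 12 for the re-analysed HF arrays and HF+P. R 2.7.2 is named, per the submitters' processing notes. How arrays were summarised, normalised and logged is not given in the sources used here. Values as deposited by the authors run from 5.36 to 15.0 and were treated as log2. The 64 control probe sets were left out. Each comparison was fitted within its own value set in limma 3.58.1 under R 4.3.3 (functions lmFit and eBayes), two-sided, with no covariate and Benjamini-Hochberg adjustment over 45037 probe sets at 0.05; prior degrees of freedom were 0.719 and 0.755. Standardized differences used 10 degrees of freedom and noncentral t intervals at 95%; exact permutation tests counted 924 assignments. Precision is limited by having 6 arrays per group, and p-values treat each labelled mouse as a separate animal. The fit was tested on simulated data.

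Members and gene lists were chosen with earlier results of these data known. Named genes were members past the threshold (0), the 3 highest and 3 lowest standardized differences per comparison, the gene with the highest level in each subfamily, and a fixed list, 23 genes and 29 probe sets in all; partner and regulator genes were named where past the threshold. Cyp2a5, Cyp2c40 and Cyp2c44 of the fixed list were not members under those symbols. Cyp2a5 and Cyp2c40 were not analysed here. Cyp2c44 is a synonym of Cyp2c23, which is a member and is described above, though not among the 23 genes. The lists covered electron transfer and haem, regulators, CAR and PXR targets, male-biased, female-biased and pericentral genes, and cell type markers (hepatocyte, lymphocyte, macrophage, neutrophil, endothelial, stellate, bile duct, intestine, lung, kidney, fat, acinar and red blood cell). Protein sequences were not used here. The closing section gives the effect of other scalings, filters, variance models, array weights, a threshold of 0.1, a block for the mouse number and each mouse left out in turn.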

Additional observations from a re-analysis of the deposited data

Results flagged for a closer look

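In 8 of 116 groups of 6 mice examined over the named CYP2 probe sets, the gap between 1 extreme mouse and its nearest neighbour, as a share of the group's range, passed the limit of 0.625; chance passes it in about 1 in 20 groups. The dimmer Cyp2j5 probe set did so in 3 groups, each time with mouse 8 lowest: 0.811 in HF+P, 0.694 in HF beside LF and 0.736 in HF beside HF+P, the latter being the same arrays. From the median of the other mice of the group, HF+P mouse 8 was at -786 millionths there and HF mouse 8, in the same value set, at -842. HF+P mouse 8 was also apart in the brighter Cyp2j5 probe set (0.653), and in Cyp2f2 (0.662), lowest in both. In Cyp2s1 HF+P mouse 2 was lowest (0.693). In Cyp2c55 HF mouse 5 was highest (0.710), 2.99 millionths above the median of the other HF mice. In Cyp2e1 HF+P mouse 4 was lowest (0.714), by 0.05 millionths, which is 5 steps of the last deposited decimal.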

How the results depend on the processing

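For HF against LF the members called numbered 4 of 42 after quantile normalisation (6766 of all 45037 probe sets) and 31 after subtracting column medians (42369 of all). They numbered 3 after dividing each probe set by its pooled SD, which gives every probe set the same spread by construction (2556 of all). At a threshold of 0.1 the count was 1 (861 of all). Filters on level, symbol or identifier, trend and robust variance, and array weights left 0. Members without overlap numbered 1 after quantile normalisation (2277 of all probe sets) and 20 after subtracting medians (35056 of all). For HF+P against HF every setting gave 0 called. Leaving out 1 mouse kept 0 called in both comparisons, with 2 to 4 members without overlap in HF against LF (4 without LF mouse 4 or HF mouse 5) and 0 to 1 in HF+P against HF (1 without HF+P mouse 4). Whether mouse numbers pair the samples was not settled. Correlations of same-numbered deviations ran from -0.130 to 0.0976 and from 0.0338 to 0.209, and 4 of 6 and 2 of 5 mice matched their own number best. With the mouse number as a block 0 members were called in each comparison, 246 of all probe sets in the first and 1 in the second. At an unadjusted limma p below 0.05 the block gave 10 and 7 of 42 members, against 9 and 2 without it. The share over all probe sets was not counted for the block at that limit. The block turned 1 sign, Cyp2c29 in HF+P against HF (0.15).

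The sign of HF against LF turned after quantile normalisation for dimmer Cyp2j5 (-0.64), Cyp2b9 (-0.83), Cyp2c39 (0.46), Cyp2d40 (-1.46), dimmer and brighter Cyp2u1 (-1.75 and -1.08), Cyp2g1 (-1.53) and brightest Cyp2b10 (-1.19). It turned after subtracting medians for Cyp2e1 (-2.77), brighter Cyp2j5 (-0.85), Cyp2c50 (-1.19), Cyp2a12 (-2.73), brighter Cyp2d22 (-2.63), Cyp2b9 (-1.80), dimmer Cyp2u1 (-2.35), Cyp2f2 (-2.74), Cyp2g1 (-1.44) and brightest Cyp2b10 (-3.03), and with array weights for Cyp2c37 (0.02) and brightest Cyp2b10 (-0.01). In HF+P against HF it turned after quantile normalisation for dimmer Cyp2j5 (0.28), Cyp2c55 (0.10), Cyp2c39 (-0.091), middle, dimmest and brightest Cyp2b10 (-0.074, -0.53 and 0.66), Cyp2s1 (0.20), Cyp2d40 (0.052), brighter Cyp2j6 (0.29) and brighter Cyp2u1 (0.75). After subtracting medians it turned for brighter Cyp2j5 (0.54), Cyp2a12 (0.32), Cyp2c55 (0.46), Cyp2s1 (0.29), dimmer and brighter Cyp2u1 (0.41 and 0.007) and brightest Cyp2b10 (0.058). After quantile normalisation 11 named probe sets per comparison had no spread and gave no value. When 1 mouse was left out, HF against LF crossed 0 for Cyp2c37 (-0.32 to 0.23), Cyp2g1 (-0.18 to 0.74), brightest Cyp2b10 (-0.21 to 0.87), Cyp2c38 (-0.59 to 0.17), Cyp2s1 (-0.42 to 0.22) and Cyp2f2 (-0.01 to 0.51). HF+P against HF did so for Cyp2c29 (-0.56 to 0.18), dimmest Cyp2b10 (-0.38 to 0.41), dimmer and brighter Cyp2u1 (-0.41 to 0.24 and -0.33 to 0.26), Cyp2c55 (-0.90 to 0.01) and dimmer Cyp2j5 (-0.86 to 0.13). The dim members and the last deposited decimal limit what can be read from Cyp2e1, Cyp2c65 and Cyp2b10. Causes of these shifts were not tested.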

Other observations

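The marker lists not yet described for HF against LF gave these counts in that comparison. Hepatocyte markers were higher by sign in 5 of 17 probe sets and lower in 12 (median -0.56), with Cyp3a11, which is also in the list of CAR and PXR targets, the 1 called. Lymphocyte and NK cell markers were higher by sign in 16 of 17 probe sets (median 0.75), neutrophil markers in 6 of 8 and red blood cell markers in 5 of 7, with 0 called by limma in each and 3, 1 and 2 at an unadjusted p below 0.05. These directions hold on the deposited scale only. After quantile normalisation 3 lymphocyte probe sets were higher and 13 lower, 2 neutrophil probe sets higher and 6 lower, and 2 red blood cell probe sets higher and 5 lower. After subtracting column medians 1 was higher in each list, and 16, 7 and 6 were lower. Fat cell markers were lower in 8 of 9 probe sets (median -0.68), with Cidec, a lipid droplet protein, called at -3.97, and -3.96 and -3.98 on the other scales. Endothelial markers were lower in 9 of 14 (median -0.64) and bile duct markers in 6 of 10 (median -0.29), with 0 called by limma and 5 and 0 at an unadjusted p below 0.05. The stellate cell list split into 12 probe sets higher and 13 lower (median -0.08). In it Lrat, which esterifies retinol, was called higher at 3.01, but after quantile normalisation it gave 0.97 with an adjusted limma p of 0.217, so that the call was lost. The intestinal list had 5 probe sets higher and 4 lower (median 0.13). In it Fabp2, a fatty acid binding protein also made in hepatocytes, was called lower at -4.44, and this call too was lost after quantile normalisation, at -1.19 with an adjusted limma p of 0.144. Lung and airway, pancreatic acinar and kidney tubule markers had medians of 0.21, 0.01 and -0.15, and all 3 medians were below 0 on both other scales.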
